A study of Mus musculus with 12 samples.

Results

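The genes described here are 10 genes of contractile smooth muscle and of mural cells, the cells that wrap blood vessels, measured by RNA sequencing in skull bone of 12 mice. They are 10 of the 23715 genes in the deposited values. The 10 were selected on the measured fold changes in both mutant sets as well as by name, so the changes of these genes in the mutants are given as a description and carry no p-value. Control mice and their Med23MSC-/- littermates form the Med23MSC-/- set (P-Ctrl and P-KO in the plots), and WT and Runx2+/- mice form the Runx2+/- set (R-WT and R-Het), with 3 mice in each group. All 12 were C57BL/6 mice. In Med23MSC-/- mice, floxed Med23, a subunit of the Mediator complex, was deleted by Prx1-Cre, which is active in limb and craniofacial mesenchyme and not in every cell of the skull. Their controls are called WT in the labels and, in the study's methods, littermates of the knockouts (Med23 fl/fl). Runx2+/- mice lack 1 allele of Runx2, the master regulator of osteoblasts, in all cells. The labels give the tissue as calvaria of newborns, the methods as parietal bone at postnatal day 2. Each value is the FPKM of a gene, that is, fragments per kilobase of its transcript, relative to library size, so that levels of different genes may be set side by side. The libraries held roughly 7800000 to 11700000 fragments each. In the Med23MSC-/- set this was 10200000 to 11700000 in controls and 7800000 to 8900000 in mutants, so depth and genotype cannot be told apart there. In the Runx2+/- set the ranges overlapped, at 8900000 to 11700000 in WT and 7800000 to 10200000 in Runx2+/- mice.

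Contractile cells move by sliding smooth muscle actin over myosin. Acta2 encodes the actin, Tagln (SM22) and Cnn1 (calponin) bind it, Myl9 is the light chain and Myh11 the heavy chain of the myosin, Lmod1 starts actin filaments and Smtn (smoothelin) lies along them. Acta2, Tagln and Myl9 are also made by fibroblasts that pull on their matrix, whereas Myh11 and Lmod1 mark mature smooth muscle. Many of these genes are switched on by serum response factor (SRF), which binds a short sequence called the CArG box together with cofactors of the myocardin family, while ETS factors such as ELK1 compete with those cofactors. Pericytes, the mural cells of capillaries, carry the PDGF receptor Pdgfrb and the proteoglycan Cspg4 (NG2), and make Rgs5, a brake on G protein signalling. Endothelial cells draw them in with the ligand PDGF-B. MED23 has been linked to the choice between smooth muscle and fat genes in earlier work on cultured cells.

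The stretches around the start sites of 4 of the genes are shown because their levels stood apart in the mutants: 3 contractile genes that were higher, and Rgs5, which was lower. Each runs from 250 bases before to 50 bases after the start of the RefSeq gene in GRCm38.p6, is written 5′ to 3′ on the gene's strand, and carries in capitals the matches to the CArG box (CC, then 6 letters of which at most 1 is C or G, then GG; the motif reads the same on both strands). The Acta2 window lies at chr19:34255324-34255623 on the minus strand, the Myl9 window at chr2:156775214-156775513, the Cnn1 window at chr9:22099003-22099302 and the Rgs5 window at chr1:169655251-169655550, the last 3 on the plus strand.
Acta2: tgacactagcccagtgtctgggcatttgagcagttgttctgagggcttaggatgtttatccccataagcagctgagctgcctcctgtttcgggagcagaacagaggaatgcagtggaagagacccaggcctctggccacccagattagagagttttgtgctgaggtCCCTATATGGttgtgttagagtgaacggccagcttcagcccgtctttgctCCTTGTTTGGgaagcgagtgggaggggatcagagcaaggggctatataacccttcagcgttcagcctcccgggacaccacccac
Myl9: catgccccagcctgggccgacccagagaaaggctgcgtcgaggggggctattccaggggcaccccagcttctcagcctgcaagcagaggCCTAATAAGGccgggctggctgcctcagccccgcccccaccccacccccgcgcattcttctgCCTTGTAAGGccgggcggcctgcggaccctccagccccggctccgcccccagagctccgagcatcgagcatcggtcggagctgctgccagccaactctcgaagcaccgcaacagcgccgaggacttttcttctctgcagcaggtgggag
Cnn1: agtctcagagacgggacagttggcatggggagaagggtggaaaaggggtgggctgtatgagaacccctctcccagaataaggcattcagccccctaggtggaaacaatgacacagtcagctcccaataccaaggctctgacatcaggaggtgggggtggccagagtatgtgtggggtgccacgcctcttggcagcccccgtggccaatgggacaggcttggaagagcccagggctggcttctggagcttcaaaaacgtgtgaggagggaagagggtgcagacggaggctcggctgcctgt
Rgs5: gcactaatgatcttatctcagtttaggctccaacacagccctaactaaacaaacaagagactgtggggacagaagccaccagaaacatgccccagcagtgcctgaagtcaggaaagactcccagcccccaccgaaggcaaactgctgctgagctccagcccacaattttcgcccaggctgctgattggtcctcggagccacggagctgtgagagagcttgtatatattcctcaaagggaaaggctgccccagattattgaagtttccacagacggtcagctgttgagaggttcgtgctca
Acta2 held 2 matches, at 84 to 75 and at 34 to 25 bases before the start, each with 1 C or G inside. Myl9 held 1 match with only A and T inside, at 161 to 152 bases before the start, and another with 1 C or G at 99 to 90 bases before it. The windows of Cnn1 and Rgs5 held none, nor did those of Lmod1, Smtn and Cspg4. Of 32851 such windows in the mouse genome, 9.98% held a match of this kind and 1.63% one with only A and T inside. A match is a stretch of letters and not a measured binding site. Tagln (the gene spans chr9:45929628-45936058) and Myh11 were not examined in this way, and no window of Pdgfrb is shown.

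In the controls the 10 genes spanned a wide range of levels. Myl9 was the most abundant, with 149.7 ± 24.1 FPKM in the controls of the Med23MSC-/- set (SD, n = 3 here and below), followed by Rgs5 (90.4 ± 6.33), Acta2 (81.3 ± 15.9) and Tagln (75.2 ± 11.9). The ranges of Rgs5, Acta2 and Tagln overlapped over these 3 mice, so that their order is not resolved. Pdgfrb (26.3 ± 5.50 FPKM) and Smtn (17.5 ± 3.43) were next, and their ranges overlapped too. Cspg4 had 5.76 ± 0.688 FPKM and Cnn1 1.67 ± 0.453. Myh11 (0.547 ± 0.179) and Lmod1 (0.294 ± 0.0622) stayed below 1 FPKM in all 12 mice, on roughly 21 to 53 and 8.9 to 30 fragments per library, and did not reach the minimum of 1 FPKM in at least 3 mice, which 8 of the 10 genes did. Some other smooth muscle genes were also near 0. Myocd, the cofactor myocardin, did not exceed 0.188 FPKM, and Kcnmb1 and Pln, a channel subunit and a calcium pump regulator of smooth muscle, did not exceed 0.0663 and 0.118 FPKM. Others, such as Smtn, Mylk (11.04 ± 1.24 FPKM in the same controls) and Actg2 (6.09 ± 1.63), were well above the minimum. The name smooth muscle is therefore used here for the genes and not for a cell type. Rgs5, Pdgfrb and Cspg4 were above the minimum in every library.

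The levels of the 8 tested genes did not differ detectably between the 2 groups of control mice, a comparison that played no part in their selection. The limma fit called 0 of 8 genes between controls and WT, and 0 also passed an unadjusted p of 0.05 and the adjusted equal-variance test. Of all 13059 genes tested, 0.0383% were called in this comparison by the adjusted p of limma and 9.43% by the unadjusted p. The adjusted equal-variance test called hardly any of all genes here or in the mutant sets. A result of 0 by that test, here or for the lists below, therefore says little. Acta2 differed by a log2 fold change of -0.03 (95% interval -0.38 to 0.33, adjusted p = 0.985) and Tagln by -0.22 (-0.57 to 0.13, adjusted p = 0.696). For Rgs5 the difference was 0.15 (-0.11 to 0.40, adjusted p = 0.730), and the largest of the 8 was that of Cspg4, 0.24 (-0.05 to 0.53, adjusted p = 0.596). The 2 groups overlapped for each of the 10 genes. Differences of up to these interval bounds remain possible, and cross and any batch cannot be told apart.

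**Figure D1:**
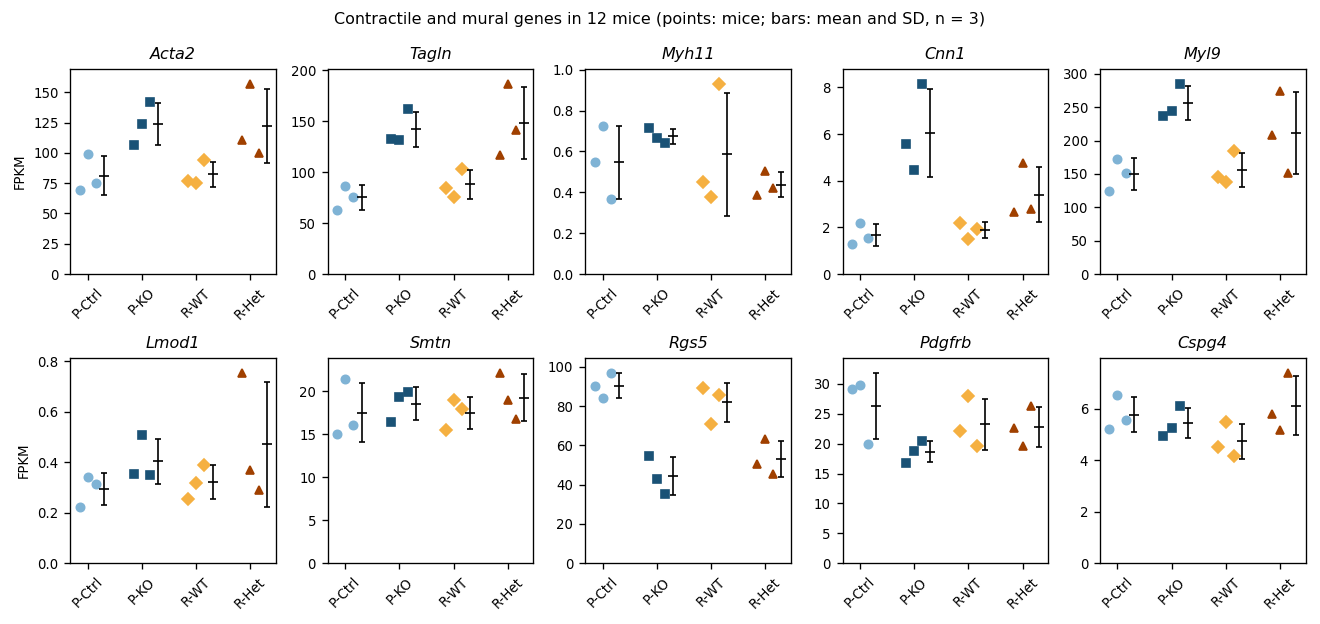
FPKM of the 10 genes (y axis, linear from 0) in control (P-Ctrl), Med23MSC-/- (P-KO), WT (R-WT) and Runx2+/- (R-Het) mice; each point is a mouse, and the bars give mean and SD of 3 mice. The mutants of both sets lie above their controls for Acta2, Tagln and Cnn1 and below them for Rgs5, whereas Smtn, Pdgfrb and Cspg4 overlap.

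The contractile genes Acta2, Tagln, Myl9 and Cnn1 were higher in Med23MSC-/- mice than in their controls, by 1.53-fold to 3.62-fold, and Rgs5 was at 0.490 of its control level. Acta2 had 69.8, 99.4 and 74.8 FPKM in the 3 controls and 107, 124 and 142 FPKM in the 3 Med23MSC-/- mice. Tagln had 63.0, 86.6 and 75.9 FPKM in controls and 132.5, 131.9 and 162 FPKM in Med23MSC-/- mice. For both genes the lowest mutant lay above the highest control. The fold of the means was 1.53 for Acta2 and 1.89 for Tagln, and the log2 fold changes, here always of FPKM + 1, were 0.61 (SE 0.16) and 0.92 (SE 0.14).

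Myl9, the regulatory light chain of myosin, had 124.5, 173 and 152 FPKM in controls and 237, 245 and 285 FPKM in Med23MSC-/- mice. This was 1.71-fold by the means and 0.78 on the log2 scale (SE 0.14). Cnn1, which slows the myosin motor on actin, was low in controls, at 1.29, 2.17 and 1.55 FPKM, and reached 5.55, 4.45 and 8.14 FPKM in Med23MSC-/- mice. It showed the widest change of the group, 3.62-fold by the means and 1.38 on the log2 scale (SE 0.21), at a level that corresponds to roughly 33 to 170 fragments per library over the 12 mice. Neither gene overlapped between mutants and controls. Smtn, by contrast, ranged from 15.1 to 21.4 FPKM in controls and from 16.4 to 19.9 FPKM in Med23MSC-/- mice, and its log2 fold change of 0.09 (SE 0.14) became -0.01 when the libraries were rescaled to the same sum.

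Among the mural cell genes, Rgs5 had 90.4, 84.1 and 96.8 FPKM in controls and 54.5, 42.9 and 35.4 FPKM in Med23MSC-/- mice, a log2 fold change of -1.03 (SE 0.15) with no overlap. Pdgfrb had 29.2, 29.8 and 20.0 FPKM in controls against 16.8, 18.9 and 20.4 FPKM, so that the highest mutant exceeded the lowest control. Its log2 fold change was -0.46 (SE 0.16) for the sum of its 2 RefSeq transcripts, and -0.13 for the transcript with the higher mean over the 12 mice alone (NM_008809, 11.4 to 15.3 FPKM in controls and 10.3 to 13.0 in mutants). The other transcript had 13.9, 17.5 and 8.51 FPKM in controls and 6.48, 6.83 and 7.38 in mutants. How reads were divided between the transcripts is not given in the sources used here. Cspg4 overlapped throughout, at 5.19 to 6.53 FPKM in controls and 4.94 to 6.10 FPKM in mutants (log2 fold change -0.07, SE 0.12).

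By the adjusted p of limma, 3 of the 8 tested genes (Tagln, Cnn1 and Myl9) were called higher in Med23MSC-/- mice and 1 (Rgs5) lower, where 1.01% of all tested genes were called higher and 0.559% lower. At an unadjusted p of 0.05, 4 were higher and 2 lower, against 15.7% and 5.63% of all genes. The mutants lay above all controls for 4 of 8 genes and below for 1, against 19.6% and 7.68% of all genes. Since this contrast was used to choose the genes, nothing is read from these counts. The calls were fragile: with any 1 of the 6 mice left out, 0 of 8 genes were called in either direction, while the log2 fold changes stayed between 0.51 and 0.76 for Acta2, 0.80 and 1.02 for Tagln, 1.18 and 1.55 for Cnn1, 0.65 and 0.89 for Myl9 and -1.19 and -0.89 for Rgs5. The balance of calls in this set moved with the scaling: 64.4% of all calls were higher as deposited, 39.3% after rescaling to the same sum and 45.5% after a shift to the same median. The log2 fold changes of Acta2, Tagln, Cnn1 and Myl9 after rescaling to the same sum were 0.51, 0.81, 1.30 and 0.67.

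In Runx2+/- mice Acta2, Tagln and Cnn1 lay above all WT mice and Myl9 overlapped, and limma called none of the 8 tested genes. Acta2 had 77.1, 75.1 and 94.4 FPKM in WT mice and 110, 157 and 99.6 FPKM in Runx2+/- mice, which was 1.49-fold by the means and 0.55 on the log2 scale (SE 0.17). Tagln had 84.8, 75.6 and 103.5 FPKM in WT and 117, 186.5 and 141 FPKM in Runx2+/- mice, 1.69-fold and 0.73 (SE 0.18). Neither gene overlapped, although the lowest Runx2+/- mouse exceeded the highest WT mouse by little for Acta2. Cnn1 had 2.21, 1.51 and 1.92 FPKM in WT and 2.65, 4.77 and 2.80 FPKM in Runx2+/- mice, 1.81-fold and 0.59 (SE 0.20), also without overlap. Myl9 did overlap, with 146, 138 and 185 FPKM in WT against 208.5, 274 and 152 FPKM in Runx2+/- mice (1.36-fold, log2 fold change 0.41, SE 0.21).

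Rgs5 had 89.0, 70.7 and 85.9 FPKM in WT and 50.6, 63.3 and 45.6 FPKM in Runx2+/- mice, a log2 fold change of -0.62 (SE 0.14) with no overlap. Pdgfrb overlapped at 19.6 to 28.0 FPKM in WT and 19.6 to 26.3 in Runx2+/- mice (log2 fold change -0.02, SE 0.15), as did Cspg4 at 4.17 to 5.49 and 5.19 to 7.37 FPKM (0.31, SE 0.14). Smtn was at 15.5 to 19.0 FPKM in WT and 16.8 to 22.1 in Runx2+/- mice (0.13, SE 0.12). Myh11 (0.379 to 0.930 and 0.387 to 0.505 FPKM) and Lmod1 (0.255 to 0.388 and 0.292 to 0.753 FPKM) remained under 1 FPKM here too.

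By the adjusted p of limma, 0 of the 8 tested genes were called in the Runx2+/- set in either direction, where 0.398% of all genes were called higher and 1.49% lower. An unadjusted p of 0.05 gave 3 higher and 1 lower, against 7.09% and 8.32% of all genes, and the adjusted equal-variance test gave 0. Runx2+/- mice lay above all WT mice for 3 of 8 genes and below for 1, against 10.7% and 10.4% of all genes. Runx2+/- mouse 2 was the highest of its group for Acta2, Tagln, Cnn1 and Myl9. Without it the log2 fold change fell from 0.55 to 0.36 for Acta2, from 0.59 to 0.38 for Cnn1 and from 0.41 to 0.20 for Myl9, and that of Tagln from 0.73 to 0.56. Without the same mouse that of Rgs5 was -0.75.

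Across both sets, Acta2, Tagln and Cnn1 lay above all controls in both mutants and Rgs5 below all controls in both, which 3.03% and 1.70% of all tested genes did. This count is part of how the genes were chosen. The difference between the 2 changes, estimated from all 12 mice, was 0.07 for Acta2 (95% interval -0.50 to 0.63) and 0.18 for Tagln (-0.36 to 0.73) on the log2 scale. It was widest for Cnn1, 0.79 (0.11 to 1.47), then for Pdgfrb, -0.44 (-0.96 to 0.09), Rgs5, -0.41 (-0.90 to 0.08), Cspg4, -0.38 (-0.79 to 0.04), and Myl9, 0.37 (-0.24 to 0.97). By limma 0 of 8 genes were called in this contrast and 1 (Cnn1) passed an unadjusted p of 0.05, against 0.153% and 15.3% of all genes. For the 8 genes the changes had a median of 0.35 in Med23MSC-/- and 0.36 in Runx2+/- mice, beside 0.06 and 0.03 for all tested genes. The median hides the opposite direction of the contractile genes and Rgs5.

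**Figure D2:**
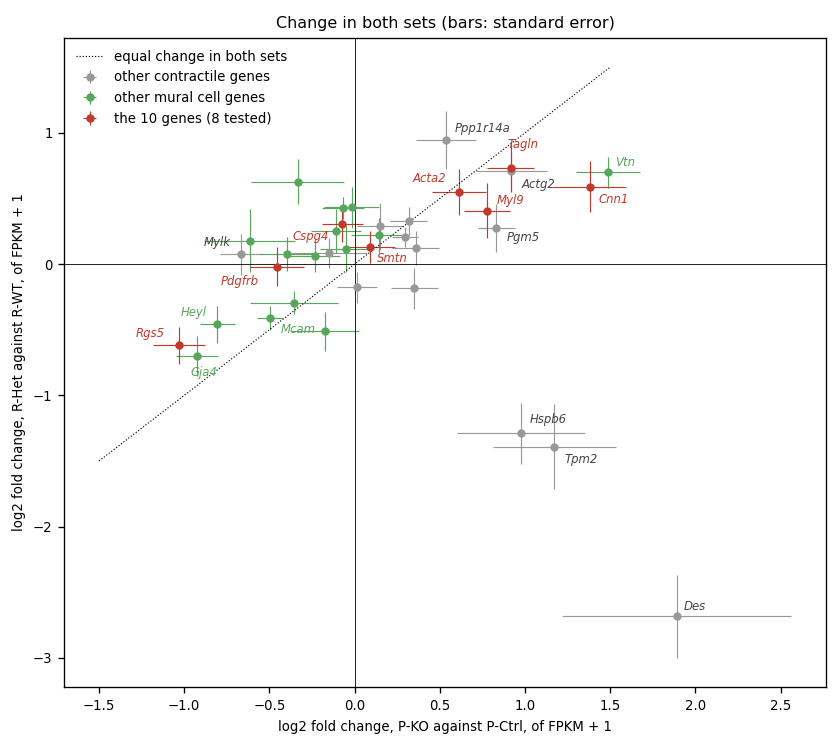
Log2 fold change of FPKM + 1 in Med23MSC-/- mice against controls (x axis) and in Runx2+/- mice against WT (y axis) for the 8 tested genes (red), other contractile genes (grey) and other mural cell genes (green), with standard errors and a dotted line of equal change. Acta2, Tagln, Cnn1 and Myl9 lie at the upper right and Rgs5 with Heyl and Gja4 at the lower left, while Des, Hspb6 and Tpm2 lie to the right and below.

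Skeletal muscle carries paralogs of several of these genes, and the level of its genes differed widely between the mice. The part of dissection or of genotype in this spread was not tested. The summed level of 14 skeletal muscle genes ranged from 24.5 to 1560 FPKM in controls, 671 to 4695 in Med23MSC-/-, 2149 to 6422 in WT and 30.0 to 209 in Runx2+/- mice. Acta1, the skeletal muscle actin, had 254, 2.49 and 51.1 FPKM in controls and 773, 119 and 514 in Med23MSC-/- mice, but 220, 260 and 689 in WT and 22.4, 18.0 and 2.46 in Runx2+/- mice. Ckm, muscle creatine kinase, ran with it, from 0.849 to 97.0 FPKM in controls, 39.6 to 270 in Med23MSC-/-, 107 to 322 in WT and 1.01 to 8.21 FPKM in Runx2+/- mice. By limma, 0 of the 11 tested skeletal muscle genes were called in the Med23MSC-/- set (median log2 fold change 2.95). At an unadjusted p of 0.05, 4 were higher, against 15.7% of all genes, and the adjusted equal-variance test gave 0. In the Runx2+/- set 10 fell by limma (median -4.68), where 1.49% of all genes did. Acta1 and Ckm fell there, with log2 fold changes of -4.89 (adjusted p = 0.0218) and -4.91 (adjusted p = 0.0169).

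With the mean skeletal muscle level of each mouse as a covariate in a fit of all 12 mice, the log2 fold change in Med23MSC-/- mice was 0.70 (SE 0.24) for Acta2, 0.98 (SE 0.23) for Tagln, 1.38 (SE 0.29) for Cnn1, 0.76 (SE 0.26) for Myl9 and -1.17 (SE 0.20) for Rgs5. In Runx2+/- mice it was 0.43 (SE 0.29) for Acta2, 0.63 (SE 0.28) for Tagln, 0.59 (SE 0.35) for Cnn1, 0.44 (SE 0.31) for Myl9 and -0.42 (SE 0.24) for Rgs5. The direction was that of the fits without the covariate, and the error was wider. In the Runx2+/- set the covariate did not overlap, at 4.82 to 5.99 in WT and 1.15 to 2.59 in Runx2+/- mice. The fit therefore cannot separate genotype from skeletal muscle level in that set. The calls of Tagln, Cnn1 and Myl9 in Med23MSC-/- mice were lost (0 of 8 genes higher by limma), and Rgs5 was still called lower. Smtn did not keep its direction in the Runx2+/- set, where 0.13 became -0.08. Reads shared with paralogs were looked for in the transcript sequences. Of 1986 stretches of 50 bases in the Acta2 transcript, 0 occurred in Acta1, Actc1, Actg2 or Actb, and 7 (0.352%) in Actg1. Tagln, Cnn1 and Myl9 shared 0 of 1546, 2332 and 1079 stretches with the paralogs examined (Tagln2 and Tagln3, Cnn2 and Cnn3, Myl12a and Myl12b). Only identical stretches of 50 bases were counted, so reads shared through shorter or nearly identical stretches would be missed.

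**Figure D3:**
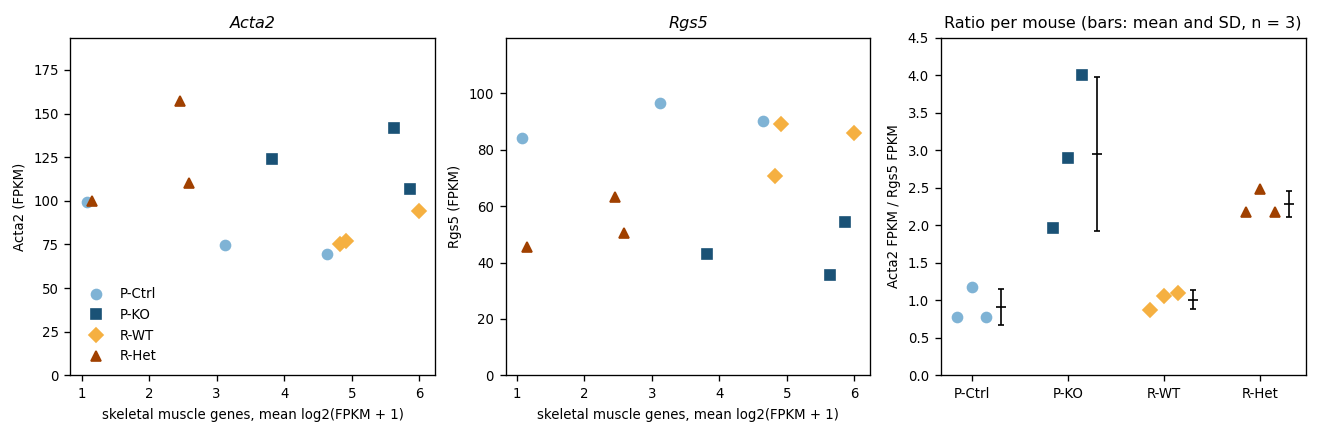
Acta2 (left) and Rgs5 (middle) in FPKM against the mean log2(FPKM + 1) of the skeletal muscle genes of the same mouse, and the ratio of Acta2 to Rgs5 per mouse with mean and SD of 3 mice (right). Mutants lie above their own controls in Acta2 and below them in Rgs5, and the ratio is at most 1.18 in controls and WT and at least 1.96 in mutants.

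The ratio of Acta2 to Rgs5 within a mouse needs no scaling between libraries. It was 0.772, 1.18 and 0.773 in controls and 1.96, 2.89 and 4.0 in Med23MSC-/- mice. In WT mice it was 0.866, 1.06 and 1.10, and in Runx2+/- mice 2.18, 2.48 and 2.18. The 6 mutants lay above the 6 controls, with means of 0.908 ± 0.235, 2.95 ± 1.02, 1.01 ± 0.125 and 2.28 ± 0.173 in that order of groups. Both genes were chosen for their change, so that the ratio restates their values mouse by mouse.

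Paralogs of the contractile genes in other muscle and in other cells were examined as a list. At an unadjusted p of 0.05, 8 of the 17 tested paralogs were higher and 1 lower in Med23MSC-/- mice, against 15.7% and 5.63% of all genes. In Runx2+/- mice 1 was higher and 7 lower, against 7.09% and 8.32%. By limma 3 were called lower in Runx2+/- mice, where 1.49% of all genes were. They were Acta1, the cardiac actin Actc1 (log2 fold change -3.43, adjusted p = 0.0293) and Lmod3, the leiomodin of skeletal muscle (-1.65, adjusted p = 0.0285). In Med23MSC-/- mice 1 of the 17 was called higher, where 1.01% of all genes were. This was Smtnl2, a relative of smoothelin (log2 fold change 1.05, SE 0.18, adjusted p = 0.0423). Smtnl2 had 1.29, 0.761 and 0.891 FPKM in controls, 3.83, 2.38 and 3.13 in Med23MSC-/-, 2.41, 2.16 and 4.22 in WT and 1.27, 1.19 and 1.09 FPKM in Runx2+/- mice. Its mutants lay above their controls in the Med23MSC-/- set and below them in the Runx2+/- set, unlike those of Acta2 and Tagln. Among the other paralogs, Myh10 lay above all controls in both sets (log2 fold changes 0.46 and 0.39) and Tagln2 below them in both (-0.22 and -0.34). Neither was called.

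Of 18 further genes of the contractile apparatus, 14 were tested. At an unadjusted p of 0.05, 10 of the 14 were higher and 1 lower in Med23MSC-/- mice, against 15.7% and 5.63% of all genes. In Runx2+/- mice 4 were higher and 3 lower, against 7.09% and 8.32%. The limma calls below compare with 1.01% of all genes called higher in Med23MSC-/- mice and 1.49% called lower in Runx2+/- mice. In Med23MSC-/- mice 1 rose by limma, Pgm5, a protein of the sites where actin is anchored to the membrane, from 4.59, 5.37 and 5.79 FPKM in controls to 10.7, 9.16 and 10.5 (log2 fold change 0.83, SE 0.11, adjusted p = 0.0269). It was not called in Runx2+/- mice (0.28, adjusted p = 0.531). In that set 2 fell, Des (log2 fold change -2.68, adjusted p = 0.0162), the desmin of muscle intermediate filaments, and the small heat shock protein Hspb6 (-1.29, adjusted p = 0.0403). Both are made in skeletal muscle as well, and their levels moved with it. Des, for example, had 24.4, 4.27 and 8.30 FPKM in controls and 66.0, 16 and 54.4 in Med23MSC-/- mice, against 24.4, 28.8 and 58.1 in WT and 4.91, 5.88 and 3.16 in Runx2+/- mice.

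Actg2, the actin of visceral smooth muscle and a close relative of Acta2, was singled out after its values had been seen. It had 4.85, 7.93 and 5.50 FPKM in controls and 10.2, 11.1 and 16 in Med23MSC-/- mice, and 7.50, 6.34 and 9.31 FPKM in WT and 14.2, 13.9 and 11.4 in Runx2+/- mice. It overlapped in neither set, with log2 fold changes of 0.92 (adjusted p = 0.0763) and 0.71 (adjusted p = 0.0552), which the threshold of 0.05 did not call. Of the 14 genes, 6 lay above all controls in Med23MSC-/- mice and 4 in Runx2+/- mice, against 19.6% and 10.7% of all genes. The latter 4 (Actg2, Cald1, Csrp1 and Ppp1r14a) were among the former, and 3.03% of all genes lay above in both sets. Below all controls lay 1 gene in Med23MSC-/- mice and 3 (Des, Tpm2 and Hspb6) in Runx2+/- mice, against 7.68% and 10.4% of all genes. Mylk, the kinase that activates the myosin light chain, also named after its values were seen, lay below all controls in Med23MSC-/- mice (5.64 to 7.39 against 9.92 to 12.4 FPKM, log2 fold change -0.67, adjusted p = 0.0504) and overlapped in Runx2+/- mice. Over the 14 genes the median change was 0.36 in Med23MSC-/- and 0.10 in Runx2+/- mice.

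Other mural cell genes divided in both directions, as the members did. Of 16 genes, 15 were tested. Limma called 3 lower and 1 higher in Med23MSC-/- mice, against 0.559% and 1.01% of all genes. At an unadjusted p of 0.05, 4 were lower and 1 higher there, against 5.63% and 15.7%. In Med23MSC-/- mice 3 fell by limma, namely Gja4, the connexin 37 of arterial endothelium and mural cells (log2 fold change -0.93, SE 0.13, adjusted p = 0.0287), Heyl, a target of Notch signalling in mural cells (-0.81, SE 0.10, adjusted p = 0.0269), and Mcam, the adhesion molecule CD146 (-0.50, SE 0.08, adjusted p = 0.0359). Vtn, vitronectin, a matrix protein that pericytes secrete, rose by 1.49 (SE 0.19, adjusted p = 0.0265). In Runx2+/- mice Vtn was the 1 gene called, with a rise of 0.70 (SE 0.12, adjusted p = 0.0346), and 0 fell by limma. Of all genes, 0.398% were called higher and 1.49% lower in that set. At an unadjusted p of 0.05, 5 were lower and 4 higher, against 8.32% and 7.09% of all genes. The adjusted equal-variance test gave 0 of the 15.

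Vtn had 3.98, 3.54 and 3.96 FPKM in controls and 17.2, 11.6 and 9.80 in Med23MSC-/- mice, and 4.98, 5.62 and 5.54 in WT and 9.92, 10.5 and 7.82 in Runx2+/- mice. Gja4 had 8.53, 7.19 and 7.49 FPKM in controls and 3.18, 4.31 and 3.36 in Med23MSC-/- mice, and 6.25, 6.54 and 8.47 in WT and 4.87, 3.88 and 3.21 in Runx2+/- mice. The mutants of both sets lay apart from their controls for either gene. Heyl was at 4.95 to 5.21 FPKM in controls and 2.30 to 2.79 in Med23MSC-/- mice, and at 4.72 to 5.93 in WT and 3.07 to 4.30 in Runx2+/- mice. Mcam was at 21.9 to 23.3 FPKM in controls and 15.5 to 16.5 in Med23MSC-/- mice, and at 17.5 to 19.2 in WT and 12.5 to 14.5 in Runx2+/- mice. In the Runx2+/- set neither overlapped and neither was called, with log2 fold changes of -0.46 (adjusted p = 0.171) for Heyl and -0.41 (adjusted p = 0.0698) for Mcam, and -0.70 (adjusted p = 0.0703) for Gja4.

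The pericyte channel genes Abcc9 and Kcnj8 and the receptor Notch3, also named after their values were seen, were not called in either set. Kcnj8 lay below all controls in Med23MSC-/- mice, at 16.4 to 25.5 against 26.3 to 31.0 FPKM, and Abcc9 above all WT mice in Runx2+/- mice, at 7.96 to 8.16 against 5.46 to 6.07 FPKM. Abcc9 had a log2 fold change of -0.07 in Med23MSC-/- and 0.42 in Runx2+/- mice (adjusted p = 0.793 and 0.0528), Kcnj8 one of -0.39 and 0.08 (adjusted p = 0.218 and 0.833) and Notch3 one of -0.23 and 0.07 (adjusted p = 0.405 and 0.857). The median of the 15 genes was -0.23 in Med23MSC-/- mice and 0.12 in Runx2+/- mice.

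**Figure D4:**
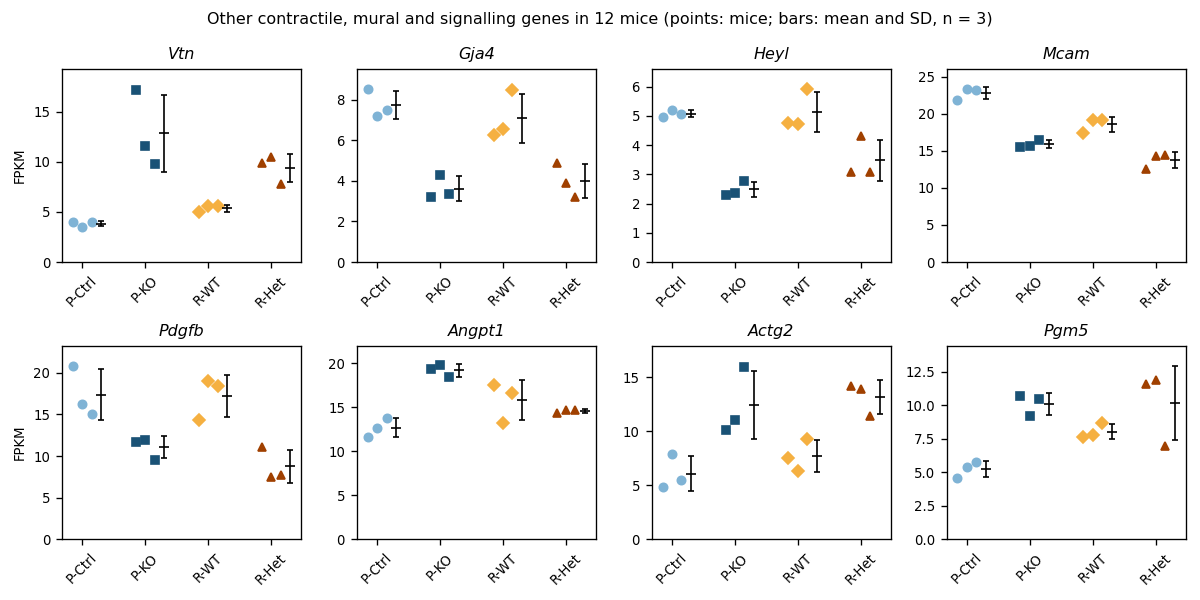
FPKM (y axis, linear from 0) of 4 mural cell genes (top), 2 signalling genes (Pdgfb and Angpt1) and 2 contractile genes (Actg2 and Pgm5) in the 4 groups; each point is a mouse and the bars give mean and SD of 3 mice. In both sets Vtn is higher and Gja4, Heyl, Mcam and Pdgfb are lower in the mutants, without overlap.

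Signals between endothelium and mural cells were examined in 12 genes, of which 11 were tested. Pdgfb, the endothelial ligand that recruits pericytes through Pdgfrb, had 20.8, 16.2 and 15 FPKM in controls and 11.7, 11.9 and 9.50 in Med23MSC-/- mice, and 14.3, 19.0 and 18.4 in WT and 11, 7.51 and 7.73 in Runx2+/- mice. It fell in Runx2+/- mice (log2 fold change -0.91, SE 0.16, adjusted p = 0.0391) and was not called in Med23MSC-/- mice (-0.60, SE 0.14, adjusted p = 0.0831), although neither set overlapped. Angpt1, the mural ligand of the endothelial receptor Tek, rose in Med23MSC-/- mice from 11.6, 12.6 and 13.8 FPKM to 19.3, 19.8 and 18.4 (log2 fold change 0.56, SE 0.09, adjusted p = 0.0388). In the Runx2+/- set it was not called (-0.10, adjusted p = 0.725).

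Of 11 regulators of contractile genes, 9 were tested and limma called 0 in either set. At an unadjusted p of 0.05, 2 were higher in Med23MSC-/- and 1 in Runx2+/- mice, against 15.7% and 7.09% of all genes. The adjusted equal-variance test gave 0. Klf4, which holds smooth muscle genes down, and Fhl2, a cofactor of SRF, were the most abundant. Klf4 had 25.7 ± 3.15 FPKM in controls and 24.4 ± 2.87 in Med23MSC-/- mice (log2 fold change -0.07, adjusted p = 0.776), and 24.3 ± 2.47 in WT and 32.9 ± 9.78 in Runx2+/- mice (0.39, adjusted p = 0.380). Fhl2 had 17.6 ± 2.15 and 24.6 ± 1.10 FPKM in the Med23MSC-/- set (0.46, adjusted p = 0.0771) and 18.8 ± 2.62 and 18.9 ± 4.43 in the Runx2+/- set (-0.01, adjusted p = 0.984). Srf itself, named for its role, had log2 fold changes of 0.39 (adjusted p = 0.149) and 0.12 (adjusted p = 0.698). Its partners Mrtfa (0.09 and 0.05, adjusted p = 0.713 and 0.823) and Elk1 (-0.07 and 0.17, adjusted p = 0.698 and 0.519) were not called either. Of the 9 genes, 4 (Srf, Fhl2, Tead1 and Mrtfb) lay above all controls in Med23MSC-/- mice, against 19.6% of all genes. In Runx2+/- mice 2 did (Klf4 and Mrtfb), against 10.7%, and 0 lay below in either set. Mrtfb had log2 fold changes of 0.20 (adjusted p = 0.348) and 0.25 (adjusted p = 0.300).

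The gene altered in each mutant overlapped between that mutant and its controls. Med23 had 5.32 ± 0.732 FPKM in controls and 5.30 ± 0.425 in Med23MSC-/- mice, and Runx2 31.6 ± 5.39 in WT and 33.5 ± 2.76 in Runx2+/- mice, so these values do not check the genotype labels. In the Med23MSC-/- set Runx2 had 38.0, 38.0 and 30.5 FPKM in controls and 23.7, 27.7 and 28.7 FPKM in mutants, without overlap (log2 fold change -0.40, 95% interval -0.67 to -0.12, limma adjusted p = 0.127). The sum over a transcript cannot show the loss of the floxed exons alone. Xist, which is made in females, marked controls 2 and 3 and WT mouse 1, so that sex and genotype were partly confounded. Without these 3 libraries the log2 fold changes were 0.81 for Acta2, 1.16 for Tagln, 1.59 for Cnn1, 1.03 for Myl9 and -1.03 for Rgs5 in Med23MSC-/- mice, where 1 control was left, and 0.51, 0.71, 0.67, 0.37 and -0.56 in Runx2+/- mice.

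Markers of other tissues were summed for each mouse. In bulk RNA, fewer cells of a type and less RNA per cell cannot be told apart. The sum of 8 osteoblast genes was 33610 to 35720 FPKM in controls and 15610 to 22100 in Med23MSC-/- mice. It was 29640 to 33400 in WT and 19610 to 25460 in Runx2+/- mice. Spp1 was the most abundant of the 8 in the latter set, with means of 17850 FPKM in WT and 10490 in Runx2+/- mice. Its log2 fold change there was -0.77, beside -0.81 for Ibsp, -0.61 for Bglap, -0.24 for Phex and -0.04 for Dmp1. Col1a1 (0.18), Alpl (0.15) and Sp7 (0.08) were not lower in Runx2+/- mice, so the sum does not stand for all 8 genes. By limma 1 of the 8 was called lower in Med23MSC-/- mice (Bglap, osteocalcin, log2 fold change -1.95, adjusted p = 0.0401), where 0.559% of all genes were. In Runx2+/- mice 0 were. At an unadjusted p of 0.05, 6 were lower in Med23MSC-/- mice, against 5.63% of all genes. In Runx2+/- mice 2 were lower, against 8.32%, and the adjusted equal-variance test gave 0. Below all controls lay 4 in Med23MSC-/- and 2 in Runx2+/- mice, against 7.68% and 10.4% of all genes. Endothelial genes overlapped in their sum, at 248 to 320 FPKM in controls and 275 to 341.5 in Med23MSC-/- mice. The sum was 257 to 318 FPKM in WT and 262 to 297.5 in Runx2+/- mice. Of 12 only Pecam1 was called, in Runx2+/- mice (log2 fold change -0.58, adjusted p = 0.0184), where 1.49% of all genes were called lower. Fibroblast genes summed to 4998 to 5471 FPKM in controls, 3472 to 4674 in Med23MSC-/-, 5017 to 5520 in WT and 4795 to 6215 in Runx2+/- mice. Schwann cell genes summed to 146 to 179, 191 to 199, 155 to 158 and 179 to 190 FPKM in the same order, and red cell genes to 15700 to 21390, 8659 to 14410, 18360 to 20980 and 4777 to 19280 FPKM. The epidermal genes summed to at most 40.3 FPKM in any mouse. Limma called 0 genes of these last 4 lists in either set, and the adjusted equal-variance test gave 0. At an unadjusted p of 0.05, 3 of 8 fibroblast and 4 of 7 red cell genes were lower in Med23MSC-/- mice, against 5.63% of all genes. There 3 of 5 Schwann cell genes were higher, against 15.7%. In Runx2+/- mice 7 of 7 red cell genes were lower, against 8.32% of all genes, and 1 Schwann cell gene was higher, against 7.09%. Of the fibroblast genes 0 passed in that set, and of the 2 tested epidermal genes 0 passed in either. The part of these tissues in the changes of the contractile genes was not tested.

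Within the groups, the contractile genes Acta2, Tagln, Cnn1 and Myl9 varied together from mouse to mouse. After centring on the 4 group means, the log2 level of each gene was set against the mean of the other 7 over the 12 mice. Pearson's r was 0.90 for Acta2, 0.73 for Cnn1, 0.72 for Tagln, 0.70 for Myl9 and 0.45 for Smtn. It was -0.11 for Cspg4, -0.23 for Pdgfrb and -0.32 for Rgs5. Gene by gene, Rgs5 had r of 0.06 with Acta2, 0.16 with Tagln, 0.11 with Cnn1 and 0.29 with Myl9. Its negative values were with Cspg4 (-0.83), Pdgfrb (-0.75) and Smtn (-0.43). Smtn had r of 0.56 with Acta2 and 0.52 with Myl9, but 0.18 with both Tagln and Cnn1. By the mean of the 8 genes, control mouse 2 and Runx2+/- mouse 2 stood highest in their groups. The 8 other genes whose centred levels ran closest to the mean of the members were Hnrnpdl (r = 0.977), Eif5a (0.936), Pde2a (0.933), Rflnb (0.919), Banf1 (0.918), Bbc3 (0.917), Entpd6 (0.915) and Ahcy (0.914), and 1 predicted gene lay among them. None is on the lists of contractile, mural or regulatory genes. These coefficients describe 12 libraries and were picked as the highest of 13059 genes. The part of depth and dissection in them was not tested.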

How the data were processed

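RNA of calvaria from 12 mice, 3 in each of 4 groups, was sequenced on the Illumina platform. Groups and replicate numbers were taken from the labels. The authors deposited 1 FPKM value per RefSeq transcript and mouse, and summed FPKM per mouse ran from 891329 to 1068933. The unit was inferred from the values. The submitters' processing notes name Bowtie 0.12.8 and mm10, and the program that estimated the values is not given in the sources used here. Depth, roughly 7800000 to 11700000 fragments, was estimated from the smallest values, so low genes rest on few fragments.

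Of 30411 transcripts, 29835 were matched to symbols by the NCBI table, 180 by GENCODE and 396 kept their identifier. Values were added up per gene (23715 genes), and the 13059 genes that reached 1 FPKM in 3 mice or more were tested on log2(FPKM + 1) with limma 3.58.1 in R 4.3.3 (mean-variance trend, Benjamini-Hochberg adjustment over all tested genes, threshold 0.05), each mutant against its own controls in 6 mice. The difference between the sets came from all 12 mice. Python 3.11.15, pandas 2.3.3, numpy 2.4.6 and matplotlib 3.10.9 served for sums, sequences and plots. The fits were tested on simulated data. Start site windows are from RefSeq, build GRCm38.p6.

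The members and the gene lists were chosen with earlier results of these data known. Besides the members, the text names genes of each list with an adjusted p under 0.05 in either set (at most 6), or the 2 most abundant where fewer than 2 passed, Acta1 and Ckm, Med23 and Runx2, and the 8 genes most like the members over the mice, and the other genes in it were named after their values were seen. Alternatives were a pseudocount of 0.1, no filter, both rescalings, 1 fit of 12 mice, the replicate number as a block, skeletal muscle or endothelial level as a covariate, leaving out libraries with Xist, an unpaired equal-variance test (which the study names), the most abundant transcript and leaving out each mouse.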

Additional observations from a re-analysis of the deposited data

Results flagged for a closer look

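Smtnl2, the smoothelin relative, was singled out because its changes in the 2 sets differed by the interaction test over all 12 mice. The difference was 1.86 on the log2 scale (95% interval 1.26 to 2.46, limma adjusted p = 0.0353), with a change of 1.05 in Med23MSC-/- and of -0.81 in Runx2+/- mice. All 3 Med23MSC-/- mice lay above their controls and all 3 Runx2+/- mice below theirs. The tested skeletal muscle genes differed between the sets in the same direction (median 7.64 on the log2 scale). With the skeletal muscle covariate the interaction test called 0 genes, so that all its 20 calls, Smtnl2 among them, were lost. The covariate did not overlap between WT and Runx2+/- mice, so this fit cannot separate genotype from skeletal muscle level there. Nothing about Smtnl2 is read from it.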

How the results depend on the processing

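The log2 fold changes of Acta2, Tagln, Cnn1, Myl9 and Rgs5 kept their direction in both sets under the alternatives run. The calls did not. In the Med23MSC-/- set, where 3 members were called higher and 1 lower, 0 were called in either direction without the filter, without the libraries with Xist and by the equal-variance test. Rescaling to the same sum gave 1 higher and the skeletal muscle covariate 0 higher. In the Runx2+/- set, 2 members (Acta2 and Tagln) were called higher with the endothelial covariate. Leaving out 1 mouse gave 0 members called in both sets. With a replicate block, 3 and 1 members were called in the Med23MSC-/- set, as without it, and 0 in the Runx2+/- set. Same-numbered mice correlated at 0.18, 0.26 and 0.05 in the Med23MSC-/- set and at 0.01, -0.05 and -0.08 in the Runx2+/- set, so the numbers were not taken as pairs.

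Over all genes, the 132 higher calls in Med23MSC-/- mice became 23 without the filter, 42 rescaled to the same sum, 66 shifted to the same median, 527 in 1 fit of 12 mice, 17 with the skeletal muscle and 555 with the endothelial covariate, 37 without Xist libraries and 0 by the equal-variance test, and ran from 0 to 22 without 1 mouse. The 73 lower calls became 12 without the filter, 190 in 1 fit, 27 and 216 with the covariates, 31 without Xist libraries and 0 by the equal-variance test, and 0 to 13 without 1 mouse. In Runx2+/- mice the 52 higher calls became 12 without the filter, 21 with the replicate block, 2 and 112 with the covariates, 5 without Xist libraries, 0 by the equal-variance test and 6 to 34 without 1 mouse. The 195 lower calls became 6, 69, 0 with the skeletal muscle covariate, 9, 1 and 28 to 135 in that order, and 56 in 1 fit. The 20 calls of the difference became 2 without the filter, 37 rescaled, 136 with the replicate block, 0 and 11 with the covariates, 1 without Xist libraries and 2 to 164 without 1 mouse. The 5 calls between controls and WT became 9 without the filter, 8 in 1 fit, 2 with the replicate block, 2 with the skeletal muscle covariate, 0 without Xist libraries, 1 by the equal-variance test and 4 to 10 without 1 mouse. The cause of these shifts was not tested, beyond the loss of mice where mice were left out. The fold change of Pdgfrb rests on how reads were divided between its transcripts, and those of Cnn1, Myh11 and Lmod1 on few fragments.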
